A study of Mus musculus with 4 samples.

Results

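Pde3b and 9 further genes with Pde symbols were examined in RNA-seq of splenic Treg cells that lack Setd2, the methyltransferase that places trimethylation on lysine 36 of histone H3. The 10 genes were Pde3b, Pde3a, Pde4a, Pde4b, Pde4d, Pde7a, Pde7b, Pde8a, Pde2a and Pde12, found by symbol among the 24087 rows of the deposited expression table. They were selected on the knockout against control values of these same libraries, in which Pde3b had one of the highest fold changes, so their differences are given as a description and without a test. Treg cells were sorted as CD3+CD4+YFP+ from steady-state spleen of C57BL/6 mice that were either Foxp3Cre-YFPSetd2f/f (KO) or littermates that were Foxp3Cre-YFPSetd2f/+ (CTRL), with 2 libraries per genotype. Cre and YFP were expressed from the Foxp3 locus in all mice, and the CTRL mice also carried a floxed allele, so that CTRL Treg cells had a single intact copy of Setd2. Each library was made from about 1000000 cells pooled from at least 2 mice, and the labels gave no age for the mice. With pooled cells the spread between libraries is that between pools, and in bulk RNA a smaller number of cells of a type cannot be told apart from less RNA per cell.

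Cyclic AMP is made by adenylyl cyclases and cyclic GMP by guanylyl cyclases, and both are broken down by cyclic nucleotide phosphodiesterases. In T cells cyclic AMP acts mainly through protein kinase A and restrains signalling from the T cell receptor, and Treg cells are known for a high cyclic AMP content. The PDE4, PDE7 and PDE8 families cleave cyclic AMP, the PDE5, PDE6 and PDE9 families cleave cyclic GMP, and the PDE1, PDE2, PDE3, PDE10 and PDE11 families cleave both. PDE3B is inhibited by cyclic GMP and is activated downstream of insulin and AKT in fat cells and liver. Pde12 does not belong with the rest despite its symbol, since it encodes an enzyme of the mitochondrion that cleaves linkages of 2′,5′-oligoadenylate and trims poly(A) tails of mitochondrial mRNA.

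This split was visible in the coding sequences of GENCODE vM21 on GRCm38. The stretch of 36 bases that encodes the PROSITE signature of 3′,5′-cyclic nucleotide phosphodiesterases, in the catalytic domain, was found in 9 of the 10 genes and was absent from Pde12. It was found in 22 of 21782 protein-coding genes, which is 0.101%, and all 22 carried a Pde symbol. The sequences are shown because they mark which of the 10 genes encode cyclic nucleotide phosphodiesterases and how close Pde3a is to Pde3b. Pde1b, a phosphodiesterase gene outside the 10, is shown for comparison. Capitals mark the codons of the histidine and aspartate that open the signature, a pair that binds metal ions in the active site.
Pde3b, chr7:114526921-114526956, plus strand: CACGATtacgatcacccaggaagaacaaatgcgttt
Pde3a, chr6:141487899-141487934, plus strand: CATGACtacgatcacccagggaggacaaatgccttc
Pde2a, chr7:101508482-101508517, plus strand: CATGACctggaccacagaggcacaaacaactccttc
Pde1b, chr15:103524849-103524884, plus strand: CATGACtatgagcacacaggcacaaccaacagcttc
Pde4a, chr9:21204375-21204410, plus strand: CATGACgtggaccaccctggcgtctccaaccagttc
Pde4b, chr4:102599694-102599729, plus strand: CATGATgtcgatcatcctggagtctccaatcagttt
Pde4d, chr13:109939313-109939348, plus strand: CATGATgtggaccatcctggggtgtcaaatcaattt
Pde7a, chr3:19233715-19233750, minus strand: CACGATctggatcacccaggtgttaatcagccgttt
Pde7b, chr10:20434504-20434539, minus strand: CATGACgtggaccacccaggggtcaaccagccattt
Pde8a, chr7:81324067-81324102, plus strand: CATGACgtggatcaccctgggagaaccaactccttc

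The Pde3b stretch lay in exon 12 of 16, at codons 797 to 808 of 1099. The Pde3a stretch shared 30 of its 36 bases, whereas those of the other 7 genes with the signature shared between 19 and 24. Of the other 15 genes with Pde symbols, 12 held the signature. The exceptions were Pde6d, which encodes a chaperone for prenylated proteins, and Pde6g and Pde6h, which encode inhibitory subunits of the photoreceptor enzyme.

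The libraries were of similar depth, with at least 29986116 to 32684687 reads recovered from the FPKM values (fragments scaled by gene length and library total). CTRL 1 stood apart in having 19100 genes above 0, of which 2431 were above 0 in no other library, against 15913 to 16410 genes in the other libraries. Setd2, the targeted gene, measured 23.4 and 25.3 FPKM in the CTRL libraries and 21.3 and 19.5 FPKM in the KO libraries. The KO libraries were the lower ones, but the difference did not pass the threshold (adjusted p = 0.0970, limma with Benjamini-Hochberg adjustment). This value covers the whole gene, and reads over the floxed part were not analysed here. Treg markers were abundant in all libraries, with Foxp3 between 111.6 and 139.8 FPKM. Of the 5 Treg markers (Foxp3, Il2ra, Ctla4, Ikzf2 and Tnfrsf18) and the 4 T cell markers measured, none passed the threshold in either direction. Foxp3 (KO mean 0.887-fold the CTRL mean) and Il2ra (0.783-fold) were nonetheless lower in both KO libraries. Ikzf2 (1.13-fold) was higher in both, and Ctla4 and Tnfrsf18 overlapped. The T cell markers Cd3d, Cd3g and Cd4 were lower in both KO libraries, and Cd3e overlapped. Summed levels of 6 B cell markers ran from 21.8 to 26.2 FPKM in CTRL and from 24.5 to 41.0 FPKM in KO. Those of 6 myeloid markers ran from 120 to 198 FPKM in CTRL and from 97.5 to 262 FPKM in KO, and were higher in library 1 than in library 2 of each genotype. The neutrophil gene S100a8 was at 0 in CTRL 2. Summed levels of 7 erythroid and platelet markers ran from 9.65 to 26.8 FPKM in CTRL and from 16.4 to 43.5 FPKM in KO. They too were higher in library 1 of each genotype. Hbb-bs was at 0 in all libraries but KO 1. Summed levels of the 2 CD8 T cell markers ran from 8.49 to 11.4 FPKM in CTRL and from 10.6 to 11.3 FPKM in KO. None of these marker lists held a gene past the threshold. Among 6 genes that Treg cells express less than conventional CD4 T cells, Il7r fell (adjusted p = 0.0421, limma), and the others went both ways. Satb1 was also lower in both KO libraries, Igfbp4 and Cd40lg were higher in both, and Dapl1 overlapped, all short of the threshold. Il2, below the filter, was higher in both KO libraries. The sum of the 6 genes ran from 200 to 210 FPKM in CTRL and from 205 to 209 FPKM in KO.

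Pde3b (ENSMUSG00000030671, chromosome 7, 114415281 to 114539251, plus strand, GRCm38) had the largest difference of the 10 genes. It was at 2.95 FPKM in CTRL 1, 2.67 FPKM in CTRL 2, 10.3 FPKM in KO 1 and 11.0 FPKM in KO 2, which rested on at least 511, 488, 1926 and 2057 reads. The genotypes were far apart and the libraries within each were close. CTRL had a mean level of 2.81 ± 0.199 FPKM (SD, n = 2), whereas KO had one of 10.6 ± 0.463 FPKM (SD, n = 2). The KO mean was 3.79-fold the CTRL mean, and single KO libraries were between 3.50-fold and 4.12-fold single CTRL libraries. The log2 fold change was 1.61 (standard error 0.088) on the log2(FPKM + 1) scale, where changes of weakly expressed genes come out too small, and this placed Pde3b at position 10 from the highest of 11399 genes. Fitted to the recovered reads by limma-voom, the log2 fold change was 1.92 (standard error 0.098). Without any single library it lay between 1.56 and 1.67 on the log2(FPKM + 1) scale.

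**Figure D1:**
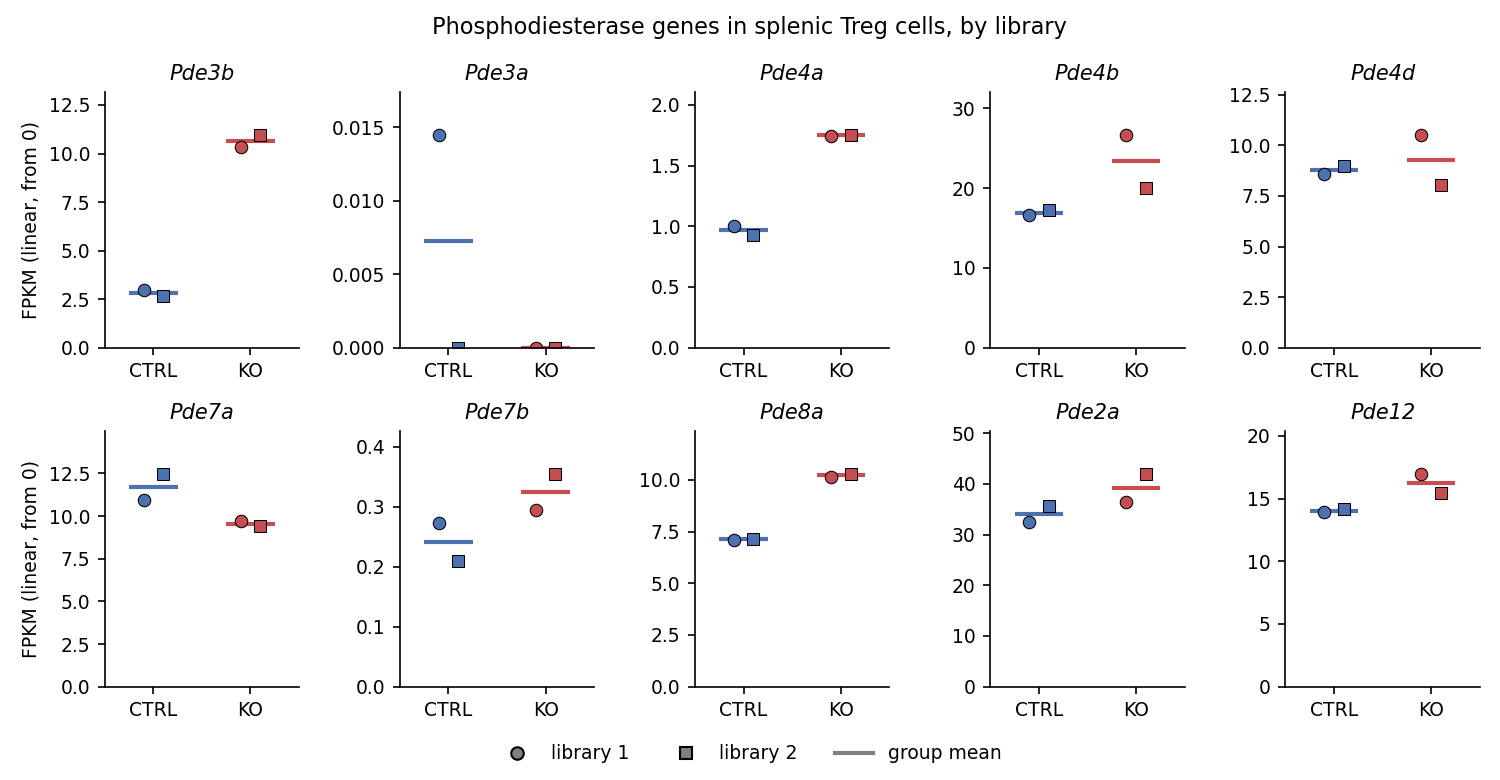
FPKM of the 10 genes in each library, on a linear axis from 0 that differs between panels. Circles are library 1, squares library 2 and lines the mean of the 2 libraries of a genotype (blue CTRL, red KO). Pde3b lies between 2.67 and 2.95 FPKM in CTRL and between 10.3 and 11.0 FPKM in KO, whereas the libraries of both genotypes overlap for Pde4d.

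Pde3a (chromosome 6, 141249269 to 141507448, plus strand), the other gene of the family, was at 0.0145 FPKM in CTRL 1, from at least 1 read, and at 0 in the other libraries. Pde3b thus made up nearly all of the PDE3 mRNA in these cells.

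Pde2a (chromosome 7, 101410886 to 101512819, plus strand) encodes a phosphodiesterase that is stimulated by cyclic GMP. It was at 32.5 FPKM in CTRL 1, 35.6 FPKM in CTRL 2, 36.4 FPKM in KO 1 and 42.0 FPKM in KO 2, the highest of the 10 genes in every library. Both KO libraries lay above both CTRL libraries, although KO 1 was only 1.02-fold CTRL 2. The log2 fold change was 0.19 (standard error 0.092), and it was 0.09 without KO 2 and 0.30 without KO 1. Pde2a shares 150 exonic bases with Arap1 on the same strand, and the annotation holds a further gene model of the same name there, so its level is uncertain.

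Of the genes that encode enzymes specific for cyclic AMP, Pde8a, Pde4a and Pde4b were higher in KO, Pde4d overlapped between genotypes and Pde7a was lower. Pde8a (chromosome 7, 81213596 to 81334533, plus strand), which encodes an enzyme with high affinity for cyclic AMP, measured 7.11 and 7.13 FPKM in CTRL 1 and CTRL 2, against 10.1 and 10.3 FPKM in KO 1 and KO 2. Libraries of the same genotype were nearly equal. The KO mean was 1.44-fold the CTRL mean, and the fitted log2 difference was 0.47 (standard error 0.070).

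The PDE4 enzymes are the targets of rolipram-type inhibitors, and PDE4B and PDE4D are recruited to the T cell receptor through arrestin after costimulation. Pde4a (chromosome 9, 21165714 to 21213248, plus strand) measured 1.00 and 0.929 FPKM in CTRL 1 and CTRL 2, against 1.74 and 1.75 FPKM in KO 1 and KO 2, from at least 165 reads in each library. The KO mean was 1.81-fold the CTRL mean, the second highest ratio of the 8 genes above the filter, and the fitted log2 difference was 0.48 (standard error 0.118). It was 0.79 with a pseudocount of 0.1 and 0.85 with limma-voom on recovered reads. Pde4b (chromosome 4, 102087543 to 102607259, plus strand) was at 16.6, 17.3, 26.7 and 20.1 FPKM in CTRL 1, CTRL 2, KO 1 and KO 2. The KO libraries were both above the CTRL libraries but differed from each other by more than KO 2 differed from CTRL. The log2 fold change was 0.43 (standard error 0.139), and it was 0.23 without KO 1 and 0.63 without KO 2. Pde4d (chromosome 13, 108449948 to 109953461, plus strand) measured 8.58 and 8.97 FPKM in the CTRL libraries and 10.5 and 8.06 FPKM in KO 1 and KO 2. KO 1 lay above and KO 2 below both CTRL libraries. The log2 fold change was 0.06 (standard error 0.131), and it was -0.11 without KO 1. KO 1 was also the library with the highest summed level of myeloid and B cell markers, whose part in the values of Pde4b and Pde4d was not tested.

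Pde7a (chromosome 3, 19223108 to 19311322, minus strand), whose product is induced when T cells are activated, was at 11.0 FPKM in CTRL 1, 12.5 FPKM in CTRL 2, 9.68 FPKM in KO 1 and 9.40 FPKM in KO 2. It was the only one of the 8 genes above the filter whose KO libraries were both lower than either CTRL library. The KO mean was 0.814-fold the CTRL mean, and the fitted log2 difference was -0.27 (standard error 0.087). Pde7b (chromosome 10, 20398004 to 20725078, minus strand) was barely detected, at 0.273 and 0.210 FPKM in CTRL and 0.295 and 0.355 FPKM in KO, from at least 30 to 52 reads, and was below the filter of 1 FPKM in 2 libraries.

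Pde12 (chromosome 14, 26659958 to 26669883, minus strand) measured 13.9 and 14.1 FPKM in the CTRL libraries and 17.0 and 15.5 FPKM in KO 1 and KO 2. The KO libraries lay above the CTRL libraries, and the fitted log2 difference was 0.20 (standard error 0.073). It shares 527 exonic bases with Arf4 on the other strand, and whether the reads were counted by strand was not given in the sources used here.

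Of the 10 genes, 8 passed the filter on low values, and Pde3a and Pde7b did not. In the fit over all genes 2 of these 8 were past the threshold, both higher in KO. Over all 11399 genes tested, 9.75% passed, with 5.10% higher and 4.65% lower in KO. Both KO libraries lay above both CTRL libraries for 6 of the 8 genes and below them for 1, against 29.0% and 35.5% of all genes tested. The median log2 fold change was 0.31 over the 8 genes and -0.02 over all genes tested. These counts and this median use the values that chose the genes. They are not a test of the genes, and nothing is drawn from them.

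**Figure D2:**
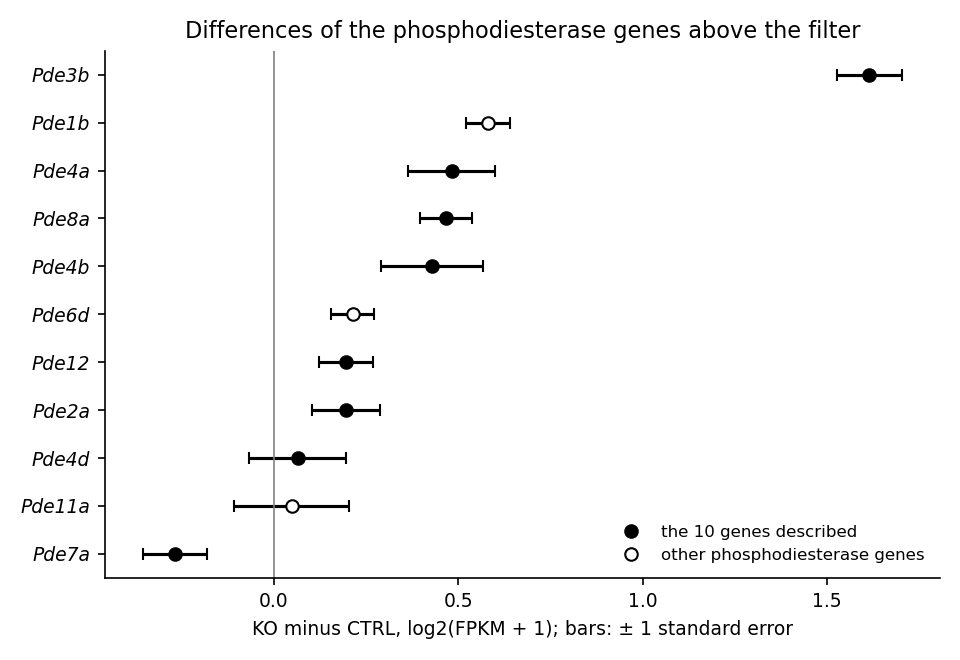
KO minus CTRL difference in log2(FPKM + 1) for the 11 genes with Pde symbols above the filter, with bars of 1 standard error from limma. Filled points are the 10 genes described, of which 8 passed the filter, and open points are other phosphodiesterase genes. Pde3b stands at 1.61, and the others lie between -0.27 and 0.58.

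Since FPKM is scaled by gene length, the levels were set side by side. The lengths used were not given, so the order between genes depends on unknown lengths. In CTRL the order was Pde2a, Pde4b, Pde12, Pde7a, Pde4d, Pde8a, Pde3b and Pde4a, and the library ranges of neighbours in this order did not overlap. Pde3b held place 9 in CTRL and place 6 in KO among all 25 genes with Pde symbols. In KO the lowest Pde3b library and the highest Pde8a library both rounded to 10.3 FPKM, and their ranges did not overlap. The range of Pde4d in KO, 8.06 to 10.5 FPKM, covered Pde7a and Pde8a and reached into that of Pde3b. The ranges of Pde3b, Pde8a and Pde7a did not overlap in KO, so only the place of Pde4d among them was within its spread.

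Of the other 15 genes with Pde symbols, 3 passed the filter, 1 of them rose and none fell. Pde1b, which encodes a phosphodiesterase stimulated by calcium and calmodulin, measured 23.0 and 22.2 FPKM in the CTRL libraries and 35.0 and 33.6 FPKM in the KO libraries. The genotypes were well separated, and the KO mean was 1.52-fold the CTRL mean. The log2 fold change was 0.58 (standard error 0.060, adjusted p = 0.0306, limma). The adjusted p ran from 0.0111 to 0.0437 in the alternative fits to all 4 libraries with a filter, was 0.0860 with every gene above 0 included, and without a library it was 0.111 (CTRL 1), 0.140 (CTRL 2), 0.114 (KO 1) and 0.0888 (KO 2). Pde6d had a log2 fold change of 0.21 (standard error 0.059, adjusted p = 0.0760, limma) and Pde11a of 0.05 (standard error 0.157, adjusted p = 0.855, limma). The remaining 12 genes were below the filter. Among them Pde5a, which encodes the cyclic GMP-specific enzyme that sildenafil inhibits, is named after its values were seen. It measured 0.217 and 0.133 FPKM in the CTRL libraries and 0.754 and 0.746 FPKM in the KO libraries, from at least 48, 31, 179 and 178 reads. Its KO mean was 4.28-fold its CTRL mean, but in the fit to every gene above 0 its adjusted p was 0.0860 (limma), and its log2 difference of 0.58 (standard error 0.064) was compressed by the pseudocount of 1.

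The 21 genes with the signature in both lists were summed to give the phosphodiesterase mRNA level of each library. The sum was 107 FPKM in CTRL 1, 110.3 FPKM in CTRL 2, 145 FPKM in KO 1 and 139.8 FPKM in KO 2. The KO mean was 1.31-fold the CTRL mean. Of the difference of 34.0 FPKM, Pde1b supplied 11.7 FPKM, Pde3b 7.84 FPKM, Pde4b 6.45 FPKM, Pde2a 5.12 FPKM and Pde8a 3.10 FPKM, whereas Pde7a was lower by a mean of 2.18 FPKM. Pde3b made up 2.77% and 2.42% of the sum in CTRL 1 and CTRL 2 and 7.12% and 7.85% in KO 1 and KO 2. Genes of enzymes that cleave both nucleotides summed to 59.7 and 61.4 FPKM in CTRL and to 83.1 and 87.6 FPKM in KO. Genes of enzymes specific for cyclic AMP summed to 46.2 and 48.5 FPKM in CTRL and to 60.8 and 51.3 FPKM in KO, and those specific for cyclic GMP to 0.616 and 0.329 FPKM in CTRL and 1.02 and 0.914 FPKM in KO. Enzymes that cleave both nucleotides and those specific for cyclic AMP thus accounted for nearly all of the mRNA in each library. As these sums contain genes chosen by the same comparison, they were not tested. The sums and the part of each gene in them also depend on gene lengths that were not given. In CTRL 1, Pde1b had 23.0 FPKM from at least 743 reads, and Pde3b had 2.95 FPKM from at least 511 reads.

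**Figure D3:**
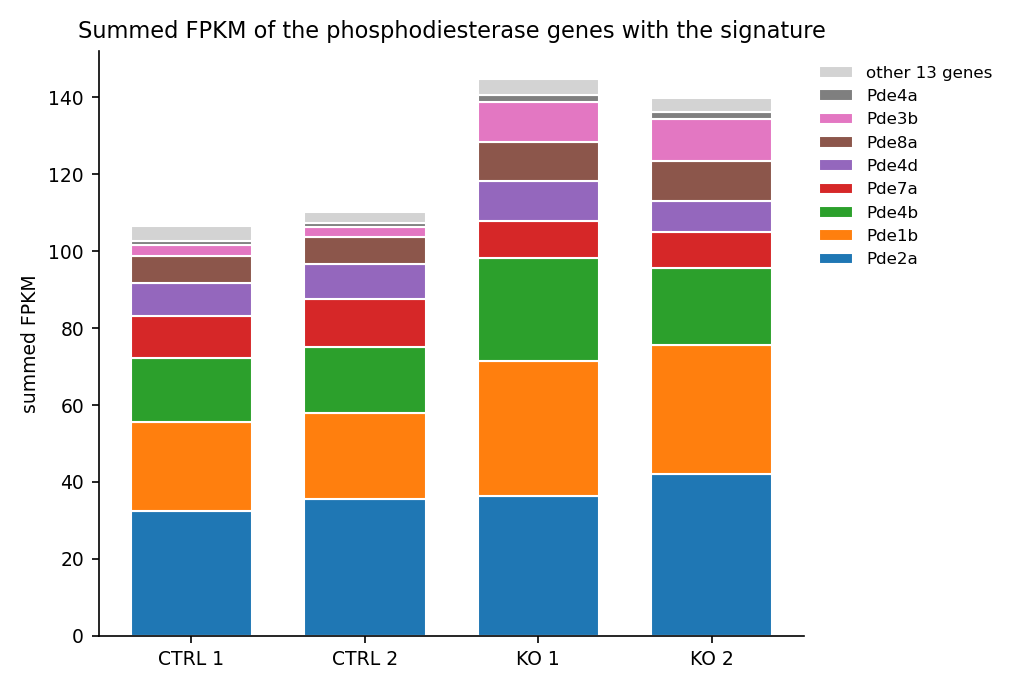
Summed FPKM, on a linear axis from 0, of the 21 phosphodiesterase genes with the signature in each library, stacked by gene. The total is 107 and 110.3 FPKM in CTRL and 145 and 139.8 FPKM in KO, and the Pde3b segment spans 2.67 to 2.95 FPKM in CTRL and 10.3 to 11.0 FPKM in KO.

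The genes that make, sense and relay cyclic nucleotides were examined next, in 9 lists that hold 100 measured genes, of which 62 passed the filter. Of these 62 genes, 3 rose and 5 fell, which is 4.84% and 8.06%, against 5.10% and 4.65% of all genes tested, and their median log2 fold change was -0.04. With libraries scaled by median ratios 3 rose and 2 fell, and with limma-voom on recovered reads 4 rose and 13 fell. Each of the 8 genes missed the threshold when any single library was left out, with adjusted p between 0.0888 and 0.174 (limma), and over all genes 0 to 1 then passed in each direction.

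None of the 3 adenylyl cyclase genes above the filter passed the threshold. The most abundant, Adcy7, measured 53.3 and 53.0 FPKM in the CTRL libraries and 48.6 and 52.3 FPKM in the KO libraries (KO minus CTRL log2 difference -0.07, adjusted p = 0.432, limma), and the difference was -0.02 without KO 1 and -0.13 without KO 2. Of 2 guanylyl cyclase genes above the filter, Gucy1a1, which encodes the alpha subunit of the nitric oxide receptor, fell by 0.44 on the log2 scale (adjusted p = 0.0481, limma), from 4.09 and 4.20 FPKM to 2.81 and 2.76 FPKM. With median-ratio scaling its adjusted p was 0.0518 (limma).

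Of 11 genes for stimulatory receptors and G proteins above the filter, 1 rose and 1 fell. Adora2a, the adenosine receptor that raises cyclic AMP in T cells, measured 21.8 and 22.4 FPKM in the CTRL libraries and 34.2 and 31.5 FPKM in the KO libraries (KO minus CTRL log2 difference 0.55, standard error 0.067, adjusted p = 0.0346, limma). Ptger4, a receptor for prostaglandin E, measured 39.9 and 41.9 FPKM in the CTRL libraries and 30.4 and 31.2 FPKM in the KO libraries (KO minus CTRL log2 difference -0.40, standard error 0.058, adjusted p = 0.0351, limma). These receptors couple to the same stimulatory G protein and moved in opposite directions. Gnas, the most abundant gene of the list and the stimulatory alpha subunit itself, measured 103 and 101 FPKM in the CTRL libraries and 113.8 and 105 FPKM in the KO libraries and did not pass the threshold (log2 difference 0.10, adjusted p = 0.303, limma). Its difference was 0.04 without KO 1 and 0.15 without KO 2. Of the 2 inhibitory alpha subunits above the filter, Gnai2 rose from 431 and 455 FPKM to 590.3 and 609 FPKM (log2 fold change 0.44, standard error 0.059, adjusted p = 0.0351, limma).

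Downstream of cyclic AMP, 1 of 8 genes for protein kinase A subunits and inhibitors rose. This was Prkar1a, the type I regulatory subunit and the most abundant of the list, which measured 147 and 138 FPKM in the CTRL libraries and 177 and 174 FPKM in the KO libraries (KO minus CTRL log2 difference 0.30, standard error 0.057, adjusted p = 0.0424, limma). Its adjusted p was 0.0680 without the variance trend (limma). Of 9 genes for A-kinase anchoring proteins, which tether the kinase and phosphodiesterases within the cell, 2 fell and none rose, and the median log2 fold change was -0.26. Akap9 went from 9.45 and 9.91 FPKM in CTRL to 7.25 and 7.20 FPKM in KO (KO minus CTRL log2 difference -0.38, adjusted p = 0.0434, limma). Akap8, the most abundant of the list, went from 80.8 and 78.3 FPKM to 66.6 and 66.3 FPKM (log2 fold change -0.26, adjusted p = 0.0476, limma). With median-ratio scaling the adjusted p was 0.0571 for Akap8 and 0.0512 for Akap9, and without the variance trend it was 0.0788 and 0.0514 (limma). Akap9 shares 166 exonic bases with Cyp51 on the other strand.

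None of the 4 other effector and efflux genes or of the 11 genes for CREB factors, their coactivators and SIK kinases passed the threshold. The most abundant were Abcc4, which exports cyclic nucleotides (log2 difference 0.14, adjusted p = 0.250, limma), and Sik1, a kinase gene that CREB induces (log2 difference 0.47, adjusted p = 0.149, limma). The difference of Sik1 was 0.26 without KO 1 and 0.27 without CTRL 1, and that of Abcc4 was 0.09 without CTRL 1. Of 12 insulin and PI3K-AKT genes that act upstream of PDE3B in other tissues, 1 fell. This was Pik3r5, which encodes a regulatory subunit of PI3K gamma. It measured 31.2 and 32.7 FPKM in the CTRL libraries and 22.0 and 24.8 FPKM in the KO libraries (KO minus CTRL log2 difference -0.44, standard error 0.078, adjusted p = 0.0406, limma). Its adjusted p was 0.0566 without the variance trend (limma). Pik3cd, the most abundant of that list, had a log2 fold change of -0.05 (adjusted p = 0.503, limma).

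**Figure D4:**
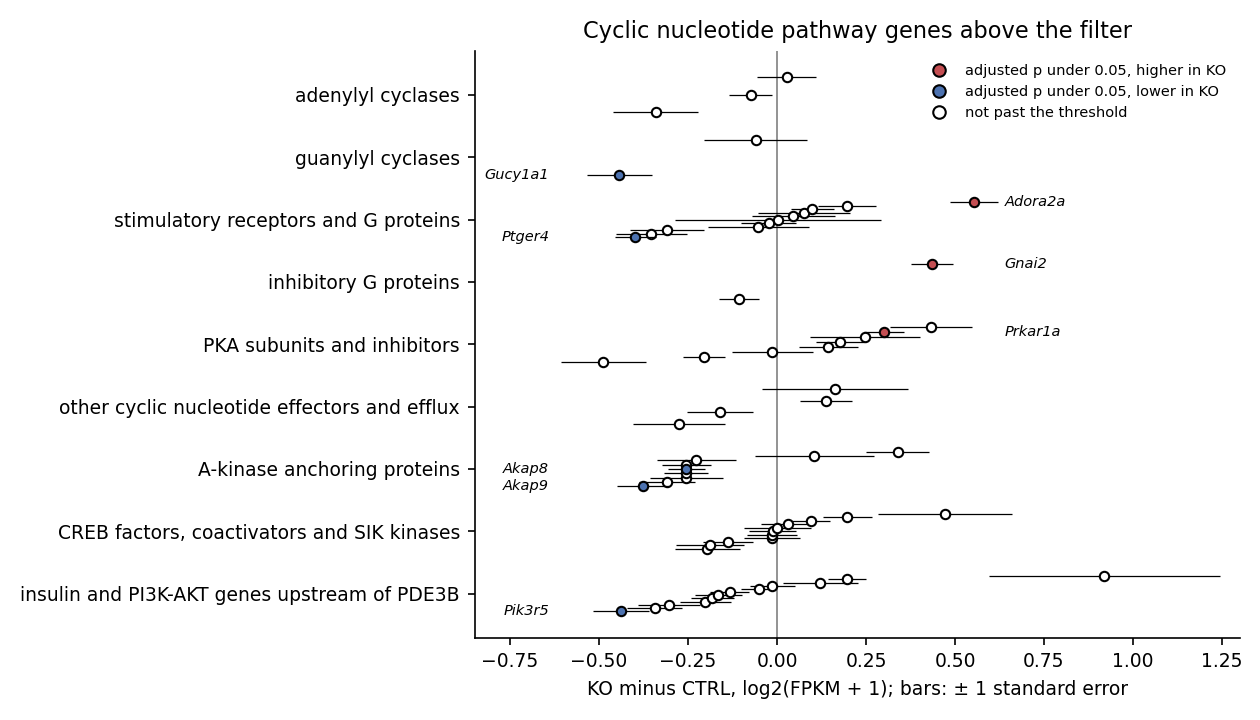
KO minus CTRL difference in log2(FPKM + 1) for the 62 pathway genes above the filter, by list, with bars of 1 standard error from limma. Red points rose and blue points fell at adjusted p under 0.05, and open points did not pass. The 3 genes that rose (Adora2a, Gnai2 and Prkar1a) and the 5 that fell are named, and the adenylyl cyclase and CREB lists hold none of them.

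Finally, the genes whose profile over the 4 libraries was closest to that of Pde3b were sought among the genes tested, by the Euclidean distance between log2(FPKM + 1) values centred on each gene's mean. The 5 nearest were Ighv10-3, Gm19585, Epas1, Gzmb and a variable segment of the kappa light chain, at distances of 0.242 to 0.358. Epas1, which encodes the hypoxia-inducible factor HIF-2 alpha, went from 1.41 and 1.69 FPKM in CTRL to 5.50 and 6.64 FPKM in KO. Gzmb, the granzyme B gene, went from 17.0 and 14.6 FPKM to 36.6 and 47.2 FPKM, and the lincRNA gene Gm19585 from 32.9 and 25.1 FPKM to 84.9 and 80.8 FPKM. The immunoglobulin variable segments rested on few reads, at least 2, 1, 28 and 41 for Ighv10-3 and 4, 0, 22 and 27 for the kappa segment in CTRL 1, CTRL 2, KO 1 and KO 2, and belong to families whose members share reads. With 4 libraries, a near profile says little more than that the genes differed by a like amount between genotypes.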

How the data were processed

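RNA-seq of sorted splenic Treg cells (150 bp read pairs, oligo(dT)) was analysed in 2 CTRL and 2 KO libraries. The authors mapped reads to mm10 with HISAT2 (version 2.2.1), counted them with featureCounts (version 2.0.1) and deposited FPKM. Columns named WT were read as CTRL. Of the 24087 rows, 108 shared a gene identifier with another row. The gene length, annotation version and strand setting were not given in the sources used here. The 11399 genes that reached 1 FPKM in 2 or more libraries were tested for a difference between genotypes with limma (lmFit, eBayes with trend; version 3.58.1 under R 4.3.3) on log2(FPKM + 1), two-sided, with Benjamini-Hochberg adjustment over all genes and a threshold of 0.05. The procedure was also run on simulated data. There all genes had the same dispersion, and the changed genes changed by more than the pathway genes named. That run does not show how the procedure performs on these libraries. FPKM values of 19887 of 19888 genes above 0 stood in whole-number ratios between libraries (tolerance 0.001), and the smallest whole numbers served as least read counts. Positions and coding sequences came from GENCODE vM21 on GRCm38; the signature was searched in the longest coding transcript of each gene. The 10 genes and all lists were chosen with earlier results of these data known. Genes named were the 10, other phosphodiesterase genes past the threshold or at 1 FPKM or more in either group, pathway genes past the threshold, the most abundant gene of each list, Setd2 and the 5 nearest profiles; Pde5a and some marker genes are named outside this rule, after their values were seen. Akap2, Trac and Hbb-bt were not matched in the table. Alternatives were another pseudocount, other filters, scalings and variance models, the replicate number as a block and leaving out each library. A fit with limma-voom on recovered reads was added after seeing the data. It used the least read counts, so a gene whose counts share a common factor entered with too few reads. How far this changed the limma-voom results was not tested. Python 3.11.15, numpy 2.4.6, pandas 2.3.3 and matplotlib 3.10.9 were used.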

Additional observations from a re-analysis of the deposited data

How the results depend on the processing

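Genome-wide, 581 genes were higher and 530 lower in KO (limma). With every gene above 0 included these counts were 0 and 0 (2212 and 2251 at unadjusted p under 0.05), no phosphodiesterase gene outside the 10 was called, and the pathway counts were 0 higher and 0 lower. Without the variance trend 315 were higher, and 2 pathway genes were higher and 2 lower. With median-ratio scaling 2 pathway genes were lower. With limma-voom on recovered reads 1024 were lower, 13 of them pathway genes. The replicate numbers are shared between genotypes but the labels tie them to nothing. The deviations of CTRL 1 and KO 1 from their group means had a Pearson r of 0.342 across genes, which are not independent replicates. A fit that adds this number as a replicate block called 968 genes higher and 805 lower, Pde1b stayed past the threshold, and the pathway counts were 3 higher and 6 lower. Leaving out a library in turn gave 0 to 1 genes higher and 0 to 1 lower (1342 to 1423 and 1292 to 1621 at unadjusted p under 0.05), and 0 to 0 for the other phosphodiesterase and pathway genes. The log2 fold change of Pde3b was 1.89 with a pseudocount of 0.1 and 1.92 with limma-voom, and 1.56 to 1.67 without a library. Without a library, Pde4d ranged from -0.11 (without KO 1) to 0.24, and Pde11a from -0.081 (without KO 1; -0.033 without CTRL 2) to 0.18. Some of these fits also differed in the number of samples or of genes tested, and the cause of these changes was not tested.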
